A study of Homo sapiens with 2 samples.

Results

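Isolated peaks are the entries of the merged PML-RARA peak list of NB4 cells that lay more than 100 kb, edge to edge, from the nearest other entry of their chromosome. They were selected on the measured positions of the peaks alone, and neither signal nor annotation entered the rule, although length bears slightly on an edge-to-edge gap. The rule found 1622 of them among the 20072 peaks on chromosomes 1 to 22 and X, a share of 8.08% (95% Wilson interval 7.71 to 8.47%), in a list of 20085 peaks in all. NB4 cells derive from acute promyelocytic leukemia and express the PML-RARA fusion protein. The cells had no stated treatment and were profiled by CUT&Tag, in which an antibody directs a transposase to cut and tag nearby chromatin. The 2 replicates form 1 group, and a single list merged from both by the authors stands for them. The list gives no value per replicate, and the sources used here do not say which end of the fusion the antibody binds. The sequencing depth is unknown and no control antibody was analysed here. Differences between peaks are therefore described with no test, and the 95% intervals of medians and shares cover only the counting of peaks.

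PML-RARA joins the nuclear body protein PML to the retinoic acid receptor alpha. It binds DNA through the receptor's zinc fingers, recruits co-repressors and holds myeloid cells at the promyelocyte stage. Its target regions include promoters and enhancers, and many lie close to sites of the myeloid factor PU.1. Enhancers of genes that define a cell type often stand in groups, whereas a broadly expressed gene in a sparse region may have little open chromatin beyond its own promoter, often at a CpG island, a stretch rich in CG dinucleotides.

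Isolated peaks lay at transcription start sites (TSSs) more often than the remaining peaks. A TSS from example models of 427 genes lay within 2 kb of 33 of 1622 isolated peaks (2.03%, Wilson interval 1.45 to 2.84%). The same held for 174 of 18450 remaining peaks (0.943%, 0.813 to 1.09%) and 1.03% of all peaks. In 27 isolated peaks (1.66%) the TSS stood inside the peak itself, against 121 remaining peaks (0.656%) and 0.737% of all. The shares ran with distance: 98 of 12317 peaks (0.796%) had such a TSS where the nearest neighbour lay within 10 kb, and 76 of 6133 (1.24%) where it lay 10 to 100 kb away. They were 15 of 891 (1.68%) at 100 to 200 kb and 18 of 731 (2.46%) beyond 200 kb. Seen from the genes, 154 of 329 protein-coding genes had a peak within 2 kb, and 30 of these 154 (19.5%) had isolated peaks alone. Of 16 long noncoding RNA genes with a peak, 2 had isolated peaks alone. The gene models are example sets from software, not a random draw of genes, so the shares hold for these genes. Models of 43 genes are from an hg19 sample, and the source of the other 384 does not name its build.

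The upstream sequences of 4 such genes are shown to give the kind of promoter under a lone peak. They are the promoters with the largest gaps (C4orf46 and CUL3) and the highest total signals (PPME1 and R3HDM1) among genes with a TSS inside an isolated peak and an entry in the RefSeq promoter table. Each run is the 250 bases before the RefSeq gene start of build GRCh38.p14, read 5′ to 3′ on the gene's strand. Capitals mark matches, on either strand, to any of 6 short motifs. These were the GC box of SP1-type factors, written GGGCGG, and the core of ETS factor sites, written CCGGAA. The box bound by the factor NF-Y is CCAAT, and the core shared by many nuclear receptor sites, retinoic acid receptors included, is AGGTCA. The core of sites of the myeloid ETS factor PU.1 was searched as GAGGAA, and the cAMP response element as TGACGTCA. The RefSeq start was not compared by sequence with the model that gave the TSS.
C4orf46 (GRCh38.p14 chr4:158672057-158672306, minus strand): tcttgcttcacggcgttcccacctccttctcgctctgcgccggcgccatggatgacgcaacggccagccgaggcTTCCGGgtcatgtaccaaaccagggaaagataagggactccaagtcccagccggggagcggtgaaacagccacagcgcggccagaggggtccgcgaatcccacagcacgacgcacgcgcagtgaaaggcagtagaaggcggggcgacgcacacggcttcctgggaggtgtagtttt
CUL3 (GRCh38.p14 chr2:224585364-224585613, minus strand): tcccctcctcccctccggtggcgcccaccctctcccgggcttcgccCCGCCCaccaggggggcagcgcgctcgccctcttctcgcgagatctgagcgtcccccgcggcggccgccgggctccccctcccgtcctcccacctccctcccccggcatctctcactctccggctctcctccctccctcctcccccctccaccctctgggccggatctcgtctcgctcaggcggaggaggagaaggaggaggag
PPME1 (GRCh38.p14 chr11:74171039-74171288, plus strand): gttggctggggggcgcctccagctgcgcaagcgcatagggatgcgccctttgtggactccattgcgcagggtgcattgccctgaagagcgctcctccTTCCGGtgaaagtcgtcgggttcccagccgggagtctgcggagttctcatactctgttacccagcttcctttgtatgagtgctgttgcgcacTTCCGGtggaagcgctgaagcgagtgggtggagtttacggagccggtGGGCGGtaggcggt
R3HDM1 (GRCh38.p14 chr2:135531234-135531483, plus strand): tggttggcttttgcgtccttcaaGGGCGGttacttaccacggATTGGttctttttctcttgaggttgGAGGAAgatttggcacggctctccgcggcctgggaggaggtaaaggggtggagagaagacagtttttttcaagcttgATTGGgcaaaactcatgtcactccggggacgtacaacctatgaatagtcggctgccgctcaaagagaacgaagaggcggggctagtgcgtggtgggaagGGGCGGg
The runs have 63.6%, 74.8%, 62.0% and 54.4% G or C bases in this order and hold 24, 23, 19 and 14 CG dinucleotides. None of the 4 holds AGGTCA in this window.

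Over the 25 protein-coding genes with an isolated TSS peak and a promoter entry, of 31 in all, the same window had a median of 22 CG dinucleotides (95% interval 14 to 24). The median was also 22 (20 to 25) in 109 genes with a remaining TSS peak, 14 (10 to 17) in 141 sampled genes with none and 17 (17 to 18) in all 15812 protein-coding promoters of the table. A GC box stood in 19 of 25 promoters under isolated peaks (76%), in 69.7% of those under remaining peaks, in 48.9% of those without a peak and in 56.0% of all. The ETS core stood in 8 of 25 (32%), 27.5%, 14.2% and 19.3% in the same order. Both motifs were thus found about as often under isolated as under remaining TSS peaks, within the wide Wilson interval of 25 promoters (56.6 to 88.5% for the GC box). The CCAAT box stood in 12 of 25 (48%, interval 30 to 66.5%), 30.3%, 29.1% and 34.4%. The nuclear receptor core stood in 3 of 25 (12%), 10.1%, 9.93% and 10.3%, and the PU.1 core in 6 of 25 (24%), 22.9%, 20.6% and 23.5%. The cAMP response element was found in 0 of 25, which allows a share of up to 12% by the limit of 3 counts and up to 13.3% by the Wilson interval, and in 2.75%, 1.42% and 2.32% of the other sets. Short motifs can overlap one another, and a match is a description of letters, not of binding.

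The sampled genes with an isolated TSS peak had varied roles. Only TSSs of the 427 sampled genes were searched, so an unsampled gene may start as near to a peak or nearer. The gene names in this and the next paragraphs therefore do not show which gene a peak belongs to. The 33 peaks had a median total signal, the coverage summed over the bases of a peak, of 7350 (95% interval 5138 to 9280). The median was 5569 (5290 to 5899) in the 1589 other isolated peaks, and 8333 (6744 to 9577) in the 174 remaining peaks at a TSS. Among the high totals was that of PPME1, which removes a methyl group from protein phosphatase 2A (chr11:73881882-73882677, total 30613, maximum coverage 120). R3HDM1, of which little is known, followed with a total of 27396 and a maximum of 64. The PPME1 peak was the tallest of the 33 by far, in a length of only 795 bp.

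**Figure D1:**
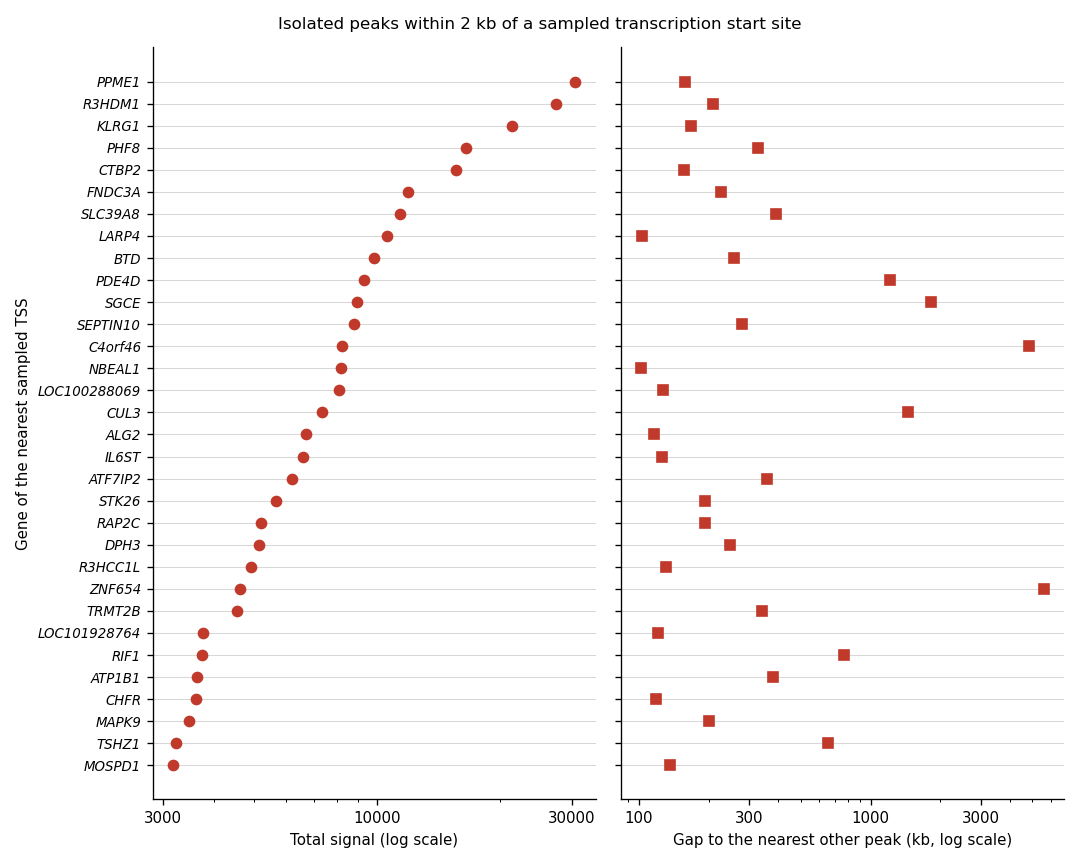
Total signal (left, log scale) and gap to the nearest other peak in kb (right, log scale) of 32 isolated peaks within 2 kb of a sampled TSS, one row per peak, named by the gene of the nearest TSS and ordered by total signal. Totals run between 3167 for MOSPD1 and 30613 for PPME1, and 3 of the 5 peaks at the largest gaps (C4orf46, PDE4D and SGCE) have totals between 8196 and 9280.

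Signalling genes were among them, mostly at low maximum signal. IL6ST, the signal transducer of interleukin 6 receptors, had a peak at chr5:55290568-55291535 with a maximum of 17 and a gap of 125 kb. PDE4D, a cAMP phosphodiesterase, had one at chr5:58334192-58335888 with a total of 9280, a maximum of 15 and a gap of 1209 kb. MAPK9, a JNK kinase, had one of total 3463 whose edge lay 28 bp from the TSS. STK26, a Ste20-type kinase, and RAP2C, a small GTPase, stood next to each other on chromosome X, 193 kb apart, with totals of 5667 and 5207 and a maximum of 13 in both. KLRG1, an inhibitory receptor of lymphocytes, had a total of 21389 and a maximum of 64. Apart from KLRG1, these 6 had maxima of 10 to 17, below the median of 22 of all peaks.

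Genes of chromatin and of protein turnover were present as well. CUL3, the scaffold of a family of ubiquitin ligases, had a peak of total 7350 and maximum 30 at chr2:225450042-225450728, with no other peak within 1445 kb. CHFR, a ubiquitin ligase of the mitotic checkpoint, had a short peak of 430 bp with a total of 3608. PHF8, a histone demethylase, had a total of 16562 and a maximum of 53 at chrX:54070113-54071542. These 3 peaks thus span a wide range of signal at gaps of 119 kb (CHFR) to 1445 kb (CUL3). CTBP2, a transcriptional co-repressor, had a total of 15636 and a maximum of 40 at chr10:126849529-126850269, and it is the 1 gene of the set that also had a remaining peak at another of its TSSs. RIF1, which acts in replication timing and break repair, had a total of 3732 and no other peak within 765 kb.

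Some genes of metabolism, transport and RNA handling had isolated TSS peaks too. SLC39A8, a zinc and manganese importer, had a total of 11411, and BTD, which recycles biotin, one of 9817. ALG2, a mannosyltransferase of protein glycosylation, had a total of 6719, and ATP1B1, a subunit of the sodium pump, one of 3635 in 447 bp. LARP4, an RNA-binding protein, had a total of 10591 and TRMT2B, a mitochondrial RNA methyltransferase, one of 4539. These totals reach from below to above the median of 5588 of all isolated peaks.

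CpG islands gave a like picture on chromosome X, where an island table was at hand. There, 37 of 54 isolated peaks (68.5%, Wilson interval 55.3 to 79.3%) overlapped an island, against 152 of 325 remaining peaks (46.8%, 41.4 to 52.2%) and 49.9% of all peaks of the chromosome. By distance to the nearest peak, 73 of 195 peaks (37.4%) overlapped an island within 10 kb, 79 of 130 (60.8%) at 10 to 100 kb, 9 of 20 (45%) at 100 to 200 kb and 28 of 34 (82.4%) beyond 200 kb. The share was thus highest at the largest distances, but not ordered throughout. Isolated peaks over an island had a median length of 853 bp and a median maximum of 20, against 924 bp and 25 in remaining peaks over an island. Isolated peaks off the islands had 650 bp and a maximum of 20, and remaining peaks off the islands 807 bp and 21. The table does not name its build. As a check, 14 of the 29 sampled TSSs of chromosome X lay within 500 bp of one of its islands, and moving the islands by 100 kb, up or down, left 0. The source of 384 of the 427 sampled genes does not name its build either. The check therefore bears on islands and TSSs sharing a build, and cannot show that this is the hg19 of the peaks.

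Isolated peaks were shorter than the remaining peaks. Their median length was 762.5 bp (95% interval 741 to 786, interquartile range 587 to 1047), against 909 bp (900 to 918, interquartile range 668 to 1368), a ratio of 0.839 or -0.25 on the log2 scale. In 38.6% of all pairs of an isolated with a remaining peak the isolated peak was the longer, with ties shared equally. Long peaks were rare among them: 48 isolated peaks (2.96%) exceeded 2 kb, against 2154 remaining peaks (11.7%) and 11.0% of all peaks. Just 1 isolated peak exceeded 4 kb (0.0617%), against 423 remaining peaks (2.29%) and 2.11% of all. Short peaks were more frequent, with 221 isolated peaks (13.6%) under 500 bp against 1444 remaining peaks (7.83%) and 8.30% of all. By chromosome, the median length of isolated peaks lay below that of remaining peaks in 22 of 23 chromosomes.

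Total signal was lower as well, mainly through fewer strong peaks. The median was 5588 (5328 to 5908) in isolated peaks and 6566 (6452 to 6720) in remaining peaks, a ratio of 0.851 or -0.23 on the log2 scale. The 90th percentiles lay further apart, at 17447 and 30657, a ratio of 0.569. Isolated peaks supplied 62 peaks (3.82%) to the top 10% of the list by total signal, against 1946 (10.5%) from remaining peaks and 10.0% of all peaks. Both groups start at the same lowest total, 2577, and 154 isolated (9.49%) and 1981 remaining peaks (10.7%) had totals under 3000. The isolated group was therefore not crowded at the lower bound of the list. Isolated peaks made up 8.08% of the peaks, 5.99% of the covered bases and 5.25% of the summed signal.

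The maximum signal, the highest coverage within a peak, had the same median of 22 in both groups (intervals 21 to 23 in isolated and 21 to 22 in remaining peaks). Its spread was narrower in isolated peaks, with an interquartile range of 16 to 32 against 14 to 39. Both ends were thinner: 79 isolated peaks (4.87%) lay in the top 10% by maximum, above 68, against 1922 remaining peaks (10.4%) and 9.97% of all. At the low end, 239 isolated peaks (14.7%) had a maximum under 14, against 4018 remaining peaks (21.8%) and 21.2% of all. The signal per base had a median of 7.84 (7.57 to 8.07) in isolated and 7.50 (7.43 to 7.57) in remaining peaks. Medians of the maximum by chromosome were lower in isolated peaks on 11 chromosomes, higher on 11 and equal on 1.

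**Figure D2:**
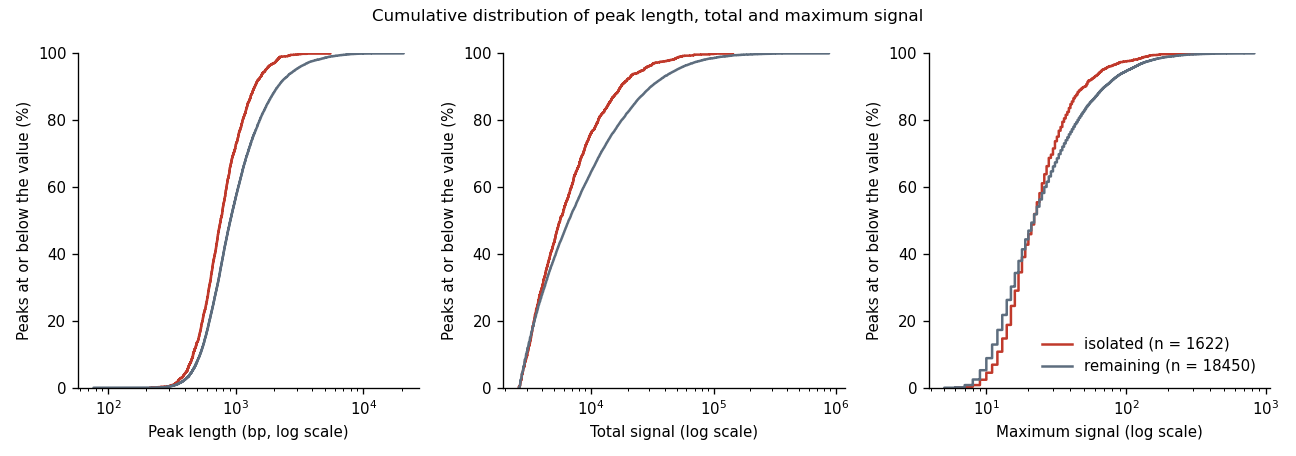
Cumulative share of peaks (vertical axes, %) at or below a given length in bp, total signal and maximum signal (horizontal axes, log scales), with isolated peaks in red (n = 1622) and remaining peaks in grey (n = 18450). The red curve lies to the left for length and for high totals, and crosses the grey one near the common median of 22 for the maximum.

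At like length, isolated peaks of middle size carried more signal than remaining peaks. Among peaks of 750 bp to under 1 kb, 386 isolated peaks had a median maximum of 21 (20 to 23) and a median total of 6519 (6061 to 6901), against 18 (17 to 18) and 5339 (5226 to 5464) in 4203 remaining peaks. Among peaks of 500 to under 750 bp the median maximum was 18 (17 to 19) in 567 isolated and 16 (16 to 16) in 4826 remaining peaks, and the median total was 4182 and 3723. Under 500 bp the median maximum was 19 in both groups. From 1500 bp upward the order of the maximum turned, with 35 (31 to 45) in 81 isolated and 39 (37 to 41) in 1740 remaining peaks of 1.5 to under 2 kb. From 2 kb upward the medians were 57.5 (40 to 82) in 48 isolated and 59 (56 to 61) in 2155 remaining peaks. In these long classes the intervals overlap.

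**Figure D3:**
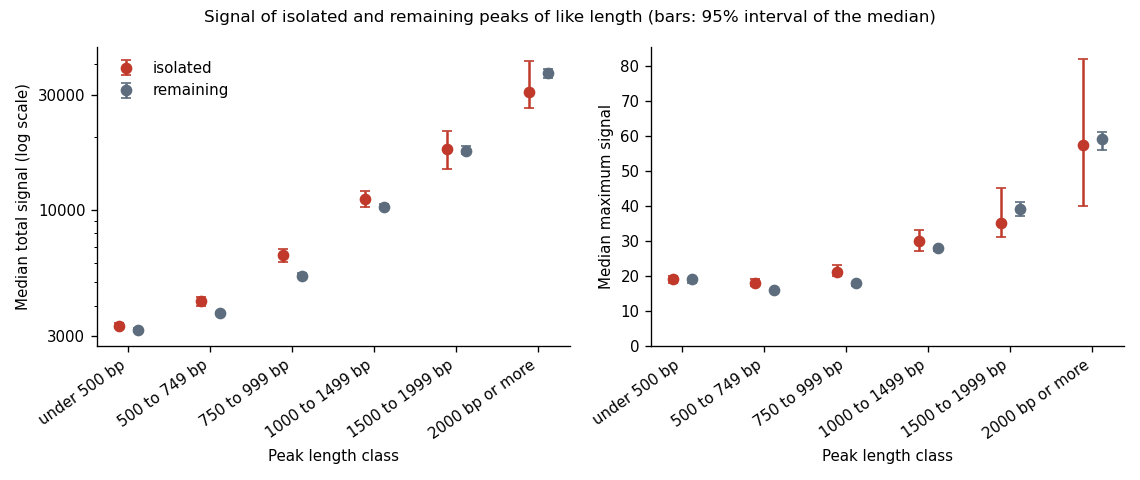
Median total signal (left, log scale) and median maximum signal (right) of isolated peaks (red) and remaining peaks (grey) in 6 classes of peak length, with bars for the 95% interval of the median over peaks. Between 500 bp and 1 kb the isolated peaks lie above the remaining ones with no overlap of the intervals, and from 1000 bp upward the intervals overlap. Under 500 bp the isolated peaks also lie higher in total with no overlap of the intervals, while the median maximum is equal.

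Over distance, length ran down in steps that did not stop at the limit of 100 kb. The median length was 1045 bp where the nearest peak lay within 1 kb, 949 bp at 1 to 3 kb, 888 bp at 3 to 10 kb, 844.5 bp at 10 to 30 kb and 809 bp at 30 to 100 kb. Within the isolated peaks it went on to 785 bp at 100 to 200 kb (n = 891), 759.5 bp at 200 to 500 kb (n = 480), 739 bp at 500 kb to 1 Mb (n = 143) and 716.5 bp beyond 1 Mb (n = 108). The median total was 7360 within 1 kb, 6123 at 30 to 100 kb, 5819 at 100 to 200 kb and 4611 (3984 to 5550) beyond 1 Mb. The maximum took another course, from a median of 20 within 1 kb to 23 at 10 to 100 kb and 19.5 (17 to 22) beyond 1 Mb. Peaks on both sides of the limit had like values: the 179 peaks with a gap of up to 10 kb above it had medians of 791 bp, total 5889 and maximum 23, and the 155 up to 10 kb below it 802 bp, 5877 and 21. The isolated peaks nearest to the limit were chr20:47237528-47238355 (gap 100.093 kb, total 3392) and chr11:107992094-107992768 (gap 100.12 kb, total 2689). Those just outside were chr1:93544543-93545425 and chr1:93645400-93646691, which face each other across 99.975 kb and have totals of 6308 and 18398.

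**Figure D4:**
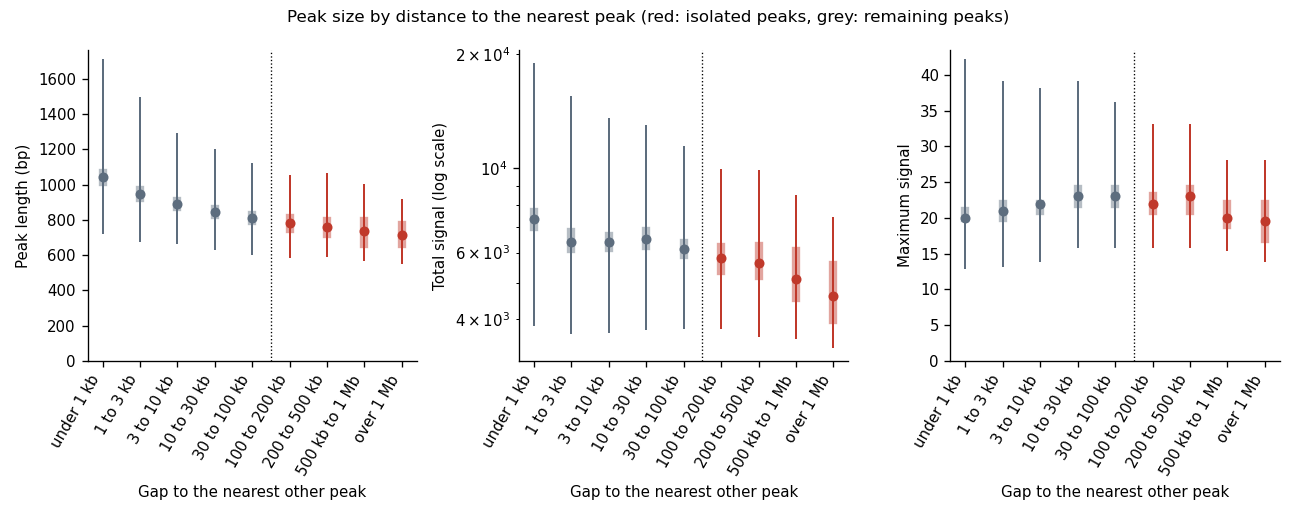
Peak length in bp, total signal (log scale) and maximum signal in 9 classes of the gap to the nearest other peak, with points for medians, thick bars for the 95% interval of the median and thin lines for the interquartile range. Grey classes hold remaining peaks and red classes, right of the dotted line at 100 kb, isolated peaks. Median length is lower in each further class, between 1045 and 716.5 bp, while the median maximum stays between 19.5 and 23.

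Position was what the rule used, so the placement of isolated peaks is given as a description. The gap to the nearest peak had a median of 183 kb (interquartile range 129 to 339 kb), and 251 isolated peaks had none within 500 kb, 108 none within 1 Mb and 20 none within 3 Mb. Isolated peaks were spread far more evenly over chromosomes than peaks at large. Their density lay between 0.312 per Mb on chromosome 21 and 0.686 per Mb on chromosome 16, while that of all peaks lay between 2.44 per Mb on chromosome X and 27.0 per Mb on chromosome 19. The share of peaks that were isolated accordingly ran between 1.75% on chromosome 19 (28 of 1599) and 20.3% on chromosome 18 (41 of 202). Other high shares were 16.4% on chromosome 13 (50 of 305), 15.5% on chromosome 8 (79 of 509), 14.2% on chromosome X (54 of 379) and 14.1% on chromosome 4 (77 of 547). Within 3 Mb of a chromosome end lay 58 isolated peaks (3.58%), against 2960 remaining peaks (16.0%).

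**Figure D5:**
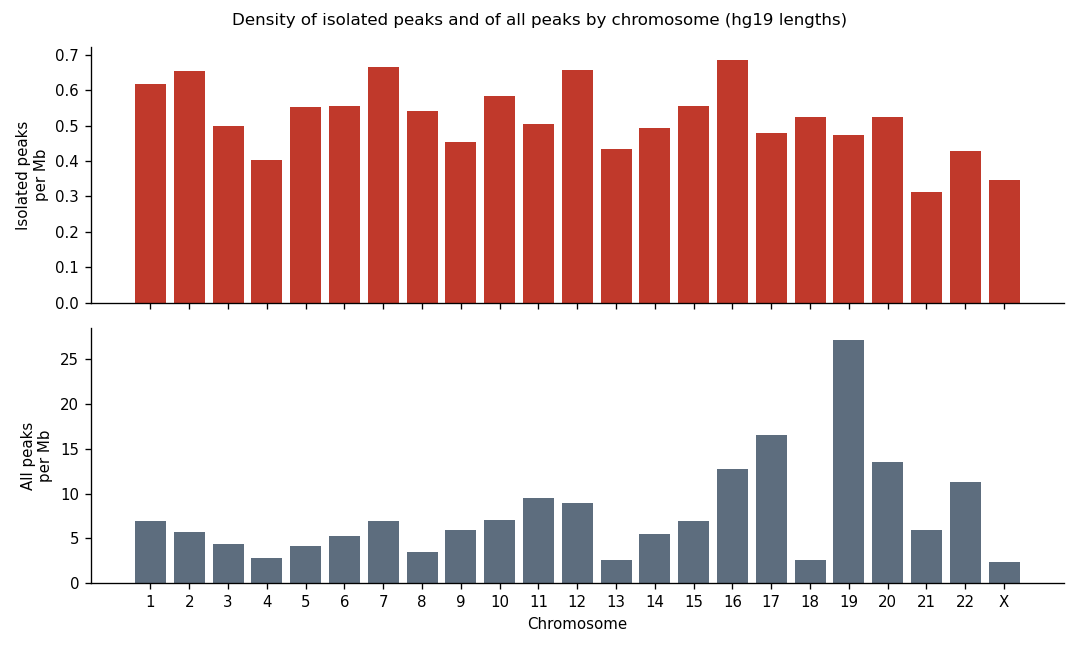
Isolated peaks per Mb (upper panel) and all peaks per Mb (lower panel) on chromosomes 1 to 22 and X, from hg19 chromosome lengths, 1 bar per chromosome. Isolated peaks vary between 0.312 and 0.686 per Mb, and all peaks between 2.44 and 27.0 per Mb.

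Isolated peaks were found in both pale and dark bands, with fewer per Mb in the darkest class than in the negative bands. Giemsa-negative bands held 867 of them (0.673 per Mb), the 3 paler positive classes 142, 264 and 190 (0.654, 0.656 and 0.468 per Mb) and the darkest class 145 (0.291 per Mb). The share of peaks that were isolated was 6.17% in negative bands and 29.2% in the darkest. Bands with isolated peaks had a median of 6 protein-coding genes per Mb, counted per peak, against 12.6 for remaining peaks and 5.29 over the 741 bands used. Isolated peaks were shorter in every stain class with at least 100 of them: the medians were 770 against 912 bp in negative bands and 757 against 860 bp in the darkest. The maximum differed in order between settings. In the 25% of bands with most genes it had a median of 23 (21 to 24) in 387 isolated and 21 (21 to 21) in 11561 remaining peaks, and in the 25% with fewest genes 22 (19 to 24) in 220 isolated and 24 (22 to 25) in 596 remaining peaks. In 102 bands every peak listed was isolated, 216 peaks in all, and 54 of these bands held a single peak. The bands with most peaks among them were 7q33 with 9 and 6q14.1 with 8.

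Isolated peaks also followed one another, which the rule itself favours, since the nearest neighbour of a remaining peak can never be isolated. For 803 of the 1622 (49.5%) the nearest peak was itself isolated, and 56 stretches held at least 5 isolated peaks in a row, 378 peaks in all. The longest stretch, chr2:146450496-169327385, held 18 isolated peaks over 22.9 Mb. Its totals had a median of 5489, and among its strong members was a short peak of 621 bp at chr2:146450496-146451117 with a total of 27223 and a maximum of 147. The RIF1 peak lies in the same stretch. The next, chrX:130036875-147577513, held 14 isolated peaks over 17.5 Mb with a median total of 4626, including those of STK26, RAP2C and MOSPD1. Another, on chromosome 8, held 12 over 18.4 Mb with a median total of 3853.

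A few isolated peaks were among the strong peaks of the list. The highest total belonged to chr10:76584570-76586779 in band 10q22.2, with a total of 144081 (rank 113 of 20072), a maximum of 328 (rank 47) and no other peak within 284 kb. It was the 1 isolated peak in the top 1% of the list by total signal. The tallest was chr19:8942415-8944094 in 19p13.2, with a maximum of 355 (rank 33) and a total of 103262. Next by total came chr10:65388293-65390928 (100498, maximum 129), with a gap of 4133 kb on its right and 107 kb on its left, and chr14:20810324-20812060 (93546, maximum 302), the first peak of its chromosome. These 4 peaks were 1679 to 2635 bp long.

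The other 6 of the 10 highest totals lay between 68127 and 92008. The longest isolated peak, chr2:71678387-71683911 in 2p13.2, had 5524 bp and a total of 92008 at a maximum of only 73. It lies in the band that also holds CYP26B1, a retinoic acid hydroxylase. The peak at chr17:56594695-56596348 (total 70371, maximum 143) lies in 17q22, the band of MPO, which encodes the granule enzyme myeloperoxidase. The remaining 4 were chr8:103250652-103252144 (79001), chr22:33313338-33316943 (68832, no peak within 712 kb), chr4:3956037-3957732 (68523) and chr6:41039492-41041706 (68127). By maximum, chr1:143913056-143913896 (248, in 840 bp) and chr17:75135708-75137066 (175) completed the top 5. Genes are named here by shared band alone, with no distance measured.

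The most remote peaks ranged from weak to fairly strong. The largest gap, 9585 kb, belonged to chr21:15755390-15755866, the first peak of chromosome 21, with a total of 3153 and a maximum of 11. Next came chr13:60970340-60971186 (7743 kb, total 7189, maximum 20), with an empty stretch of 11468 kb on its other side. The peaks chr3:81810014-81811150 (6296 kb, total 22069, maximum 47) and chr3:88107612-88108269 (5591 kb, total 4616, maximum 22) face each other across 6296 kb. The ZNF654 peak, with the total of 4616, lies in a centromeric band, 136 bp from the TSS of this zinc finger gene. The first peak of chromosome X, chrX:3732538-3734598, followed with 5574 kb and a total of 18343. Each of these 5 was the only listed peak of its band, and 3 of them exceeded the median total of 6478 over all peaks.

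The bands of named gene lists differed in the share of their peaks that were isolated, as their peak density did. In 17 bands of neuronal and adhesion genes from gene-poor regions, 18 of 83 peaks were isolated (21.7%, at 0.966 peaks per Mb). Isolated peaks lay in 9 of the 17 bands. In the band of LSAMP, a neuronal adhesion gene, both peaks were isolated. The bands of CNTNAP2 and EYS had 0 of 2 and 0 of 3. In 15 bands of myeloid transcription factors, 40 of 772 peaks were isolated (5.18%, at 14.6 peaks per Mb), with 7 of 86 in the band of ID2, which blocks DNA binding of helix-loop-helix proteins, and 1 of 27 in that of RUNX1. Bands of retinoid genes had 18 of 424 (4.25%), those of neutrophil genes 36 of 966 (3.73%) and those of ribosomal and housekeeping genes 26 of 706 (3.68%). Over the 741 bands used it was 1547 of 18978 (8.15%). Per Mb, isolated peaks numbered 0.755 in the myeloid factor bands and 0.210 in the neuronal ones, with 0.576 over all bands used. In the retinoid list the single peak of the band of LRAT, which esterifies retinol, was isolated. It is the peak at the TSS of C4orf46, so the shared band does not link it to LRAT. In the band of RARB, a retinoic acid receptor, 2 of 4 peaks were isolated. The bands of RARG and CYP26A1 had 0 of 132 and 0 of 9.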

How the data were processed

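Peaks were deposited by the authors as 1 merged list. Trimmomatic, Bowtie2, SAMtools, bedtools and SEACR, with build hg19, are named in the submitters' processing notes. The sources used here give no versions, SEACR threshold or way of merging. The deposited signal values are whole numbers with no stated scaling to depth: the column headed width is read as total signal, since it exceeded the length in all 20085 rows and never exceeded length times maximum, and the column headed peak as maximum signal. These are the authors' own values per peak. Peak length is end minus start, and starts may count from 0.

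The members and lists were chosen with earlier results of these data known. Gaps, medians with exact binomial intervals and shares with Wilson intervals (both 95%) were computed in Python 3.11.15 with pandas 2.3.3 and scipy 1.17.1, and the rule was tested on simulated data. At a chromosome end the missing side did not count. Bands came from circlize 0.4.16, chromosome lengths from GenomeInfoDb 1.38.1, and genes of GRCh38 were linked to bands by name, without 43 bands whose length differed by over 10% between builds and without the bands stained as centromere, variable or stalk (46, 16 and 5), which leaves 741 of 851. TSSs came from the hg19 sample of GenomicFeatures 1.54.1 (43 genes) and from pyranges 0.1.4 (384 genes, without 2 models over 2500 kb), and islands from pyranges. The rule for named peaks took the 10 highest totals, the 5 highest maxima, the 5 largest gaps, the 5 longest and the 2 nearest to the limit on each side. TSS genes, promoters, motifs and islands were chosen after the list had been seen, and the CCAAT, GC, ETS, PU.1, nuclear receptor and cAMP motifs with them. Some items are not reported here. The 2 replicates may be technical. Alternatives are listed in the closing section.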

Additional observations from a re-analysis of the deposited data

Results flagged for a closer look

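Outside chromosomes 1 to 22 and X the list held 13 peaks on 6 unplaced or not localised contigs, which enter none of the comparisons. Their median maximum was 50 and their highest 1005, above the highest maximum of 355 among isolated peaks and 830 among remaining peaks. Whether they are alone on their contigs was not used, since contigs are short pieces.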

How the results depend on the processing

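The number of isolated peaks depends on the limit: it was 3000 with a gap over 50 kb and 731 with a gap over 200 kb. With 50 kb the median length was 786.5 bp. Leaving out the 25% of rows with the lowest total first raised the medians of isolated peaks to 884 bp, a total of 7474 and a maximum of 26, with log2 ratios to the remaining peaks of -0.34 for total and -0.11 for maximum. With rows within 1 kb merged first, the log2 ratios were -0.37 for total and -0.13 for maximum. Against remaining rows with a neighbour within 10 kb only, the ratio for length was -0.33. Under all 9 alternatives tried the log2 ratio stayed below 0 for length (-0.33 to -0.22) and for total (-0.37 to -0.17), while that for maximum lay on both sides of 0 (-0.13 to 0.07), so no direction is given for it. At a sampled TSS lay 2.03% of isolated and 1.24% of remaining peaks with a window of 5 kb, and 1.66% of isolated and 0.656% of remaining peaks with the TSS inside the peak. On chromosome X, 82.4% of peaks with a gap over 200 kb overlapped an island, against 46.7% of the rest. The alternatives for TSSs and islands were chosen after seeing the data. In all, 59 of 73 alternative values stayed within the interval of the reported value or, for counts, within 1.5 times of it. A change of sign was possible only for the log2 ratios of length and total, and none occurred there. No paired analysis was possible because the list merges both replicates, and for the same reason no replicate could be left out. The unknown depth and the unstated threshold limit what can be said of weak peaks.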

Other observations

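Other isolated peaks lay inside sampled genes, away from their sampled TSSs, and are given as values. The strongest of these 10, at chr12:12161975-12164032, overlapped the example model of ETV6, which encodes an ETS-type transcriptional repressor of blood cells. It lay 139617 bp from the nearest sampled TSS, with a total of 27274, a maximum of 57 and a gap of 152 kb. The example models were not compared with a full annotation, so the placement of this peak in ETV6 holds for that model only. CAMTA1, a calmodulin-binding transcription factor gene, held 2, at chr1:7027174-7027956 (total 4077) and chr1:7681697-7682372 (total 3826). GSG1L, which encodes a subunit of AMPA receptors, held 2 as well, with totals of 5959 and 5161, and LHFPL6 held 1 of 5862. Lower totals were found in ZNF532 (3447), in CLCN4, a chloride and proton exchanger gene (3156), in ANK2, which encodes an ankyrin of the membrane skeleton (3026), and in SH3KBP1, an endocytic adaptor gene (3019). In all, 37 isolated peaks (2.28%) and 277 remaining peaks (1.5%) overlapped a sampled gene. These counts include the peaks with a sampled TSS inside, 27 isolated and 121 remaining. The 2 shares therefore do not compare peaks away from TSSs.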
